A study of Mus musculus with 7 samples.

Results

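The genes described are Nfe2l2, which encodes the transcription factor NRF2, its inhibitor Keap1 and 8 genes of the antioxidant response that NRF2 drives, namely Nqo1, Hmox1, Gclc, Gclm, Txnrd1, Srxn1, Slc7a11 and Prdx1. They were listed by symbol, with earlier results of these data known, and make up 10 of the 33710 genes listed in at least 1 of the 7 count matrices. Each library was made by Drop-seq, a droplet method that tags the 3′ end of each mRNA with a cell barcode and a unique molecular identifier (UMI), from a single-cell suspension of a primary mammary tumor. The 7 libraries, 1 per mouse, came from control MMTV-PyMT; HK2 f/f animals on a C57BL/6 background, labelled Wild type, taken 3 months after a tumor could be felt. Libraries from mice with deleted HK2 were not analysed here.

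In this model the polyoma middle T oncogene (PyMT) is driven by the MMTV promoter, which is active in mammary epithelium. The animals carry floxed Hk2, the gene of hexokinase 2, their source label names no Cre recombinase, and according to the methods of the study they were given tamoxifen like the mice in which the gene was deleted. The label of the treatment describes a systemic HK2 deletion for every library, including these, and the genotype label was followed. Titles fall into 2 series, CB with 4 mice and WT with 3 mice, whose meaning the labels do not give. The question put to the data was how mRNA of this pathway is distributed over the cells of one tumor.

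NRF2 is a basic leucine zipper factor whose abundance is set mainly at the protein level. KEAP1 presents it to a CUL3 ubiquitin ligase for degradation, phosphorylation by GSK3 marks it for a second ligase that uses β-TrCP, and when it escapes both it pairs with a small MAF protein at antioxidant response elements. Its targets rebuild glutathione, reduce quinones, break down heme and recycle thioredoxins and peroxiredoxins. Levels of Nfe2l2 mRNA are therefore not levels of NRF2 activity, and the targets also answer to other factors.

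Cells were barcodes with 200 to 6000 genes, mitochondrial genes left out. These were 15047 of 37000 barcodes, 1133 to 4780 per mouse, with a median of 527 to 694 UMIs per cell. The 7 libraries shared 5 cell barcodes over all pairs and no pair shared more than 1. Clusters were named from marker lists, and 12602 cells fell into 7 classes, whereas 2445 cells lay in clusters given another name or none. The tumor class (5335 cells) had summed levels of its 10 tumor and alveolar markers of 43330 to 72320 CPM (UMIs per 1000000 UMIs of a sum) over mice, against 728 to 7899 in macrophages and 10480 to 42530 in the myoepithelial class. Every class detected all 10 of its own markers. Sums of UMIs per mouse and class were used where a mouse had at least 10 cells, which left 3 mice for endothelial and 5 mice for myoepithelial cells, and 7 mice for the other classes. The depth of a sum ranged from 11541 UMIs in T/NK cells of replicate 8, where 1 UMI equals 86.7 CPM, to 1843209 UMIs in tumor cells of replicate 7. Since tags mark 3′ ends, values were compared between classes for one gene and not between genes.

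The promoters of the genes are shown first, because NRF2 acts at a short sequence in them. All positions are for mm10 (GRCm38), with genes from GENCODE vM21 and promoter windows from RefSeq. Nfe2l2 lies at chr2:75675513-75704641 (minus strand) and Keap1 at chr9:21229730-21239361 (minus). Nqo1 lies at chr8:107388225-107403206 (minus), Hmox1 at chr8:75093621-75100589 (plus), Gclc at chr9:77754535-77794485 (plus) and Gclm at chr3:122245557-122270732 (plus). Txnrd1 lies at chr10:82833951-82897712 (plus), Srxn1 at chr2:152105516-152111376 (plus), Slc7a11 at chr3:49892526-50443614 (minus) and Prdx1 at chr4:116685544-116700822 (plus). Exons of Keap1 overlap Gm16754 on the other strand, and exons of Gclm overlap Gm17494 on the other strand and Gm6061 on its own. Counts of Keap1 and Gclm are uncertain where the counting did not use strand, which is not given in the sources used here. The overlap with Gm6061 leaves counts of Gclm uncertain whether or not strand was used.

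The core of the antioxidant response element was searched as TGACNNNGC on both strands of windows of 300 bases around RefSeq transcript starts. Of 32851 such promoters 12.4% held at least 1 match, and of 27025 genes 14%. The table held 10 windows of 8 members; Hmox1 and Gclc had no entry. A match was found for 5 of these 8 genes, Nfe2l2, Gclm, Txnrd1, Srxn1 and Prdx1. The first 250 bases of the windows are given 5′ to 3′ for members on which the results below turn, lower case, with the match in capitals, and the windows of Nqo1 and Slc7a11 are shown because their levels differed most between classes and their windows held no match.
Nfe2l2 (GRCm38.p6, minus strand, chr2:75704664-75704913; the match has the forward letters): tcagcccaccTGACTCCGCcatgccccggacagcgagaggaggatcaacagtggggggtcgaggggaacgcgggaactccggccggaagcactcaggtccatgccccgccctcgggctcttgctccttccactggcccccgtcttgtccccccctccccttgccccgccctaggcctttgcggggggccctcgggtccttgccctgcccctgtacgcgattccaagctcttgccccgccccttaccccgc
Gclm (GRCm38.p6, plus strand, chr3:122245307-122245556; reverse complement match): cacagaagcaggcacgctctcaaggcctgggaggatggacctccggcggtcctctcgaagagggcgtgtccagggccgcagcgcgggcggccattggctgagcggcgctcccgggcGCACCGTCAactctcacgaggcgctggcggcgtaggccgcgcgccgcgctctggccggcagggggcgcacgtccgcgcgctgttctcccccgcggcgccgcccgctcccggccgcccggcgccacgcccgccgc
Prdx1 (GRCm38.p6, plus strand, chr4:116685349-116685598; reverse complement match): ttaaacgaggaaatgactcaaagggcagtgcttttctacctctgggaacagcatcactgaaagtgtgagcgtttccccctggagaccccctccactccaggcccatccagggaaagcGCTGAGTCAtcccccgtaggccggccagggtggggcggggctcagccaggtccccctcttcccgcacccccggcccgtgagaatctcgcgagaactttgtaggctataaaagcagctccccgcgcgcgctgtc
Nqo1 (GRCm38.p6, minus strand, chr8:107403206-107403455): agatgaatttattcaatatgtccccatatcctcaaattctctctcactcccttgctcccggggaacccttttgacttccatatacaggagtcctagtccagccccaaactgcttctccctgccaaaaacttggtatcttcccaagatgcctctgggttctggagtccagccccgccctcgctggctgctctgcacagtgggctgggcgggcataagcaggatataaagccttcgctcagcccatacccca
Slc7a11 (GRCm38.p6, minus strand, chr3:50443614-50443863): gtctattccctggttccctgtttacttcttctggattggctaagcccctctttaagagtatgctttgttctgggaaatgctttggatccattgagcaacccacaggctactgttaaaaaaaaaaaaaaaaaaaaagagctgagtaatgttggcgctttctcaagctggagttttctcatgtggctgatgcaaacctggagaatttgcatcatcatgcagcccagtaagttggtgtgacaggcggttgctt
In Srxn1 the match lay at chr2:152105552-152105560, just behind the transcript start, in the stretch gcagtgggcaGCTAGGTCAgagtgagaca. In Txnrd1 it lay at chr10:82859114-82859122, in 1 of the 3 windows of this gene, in the stretch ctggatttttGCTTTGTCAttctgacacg. A match is a description of letters, and elements outside these windows were not searched.

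Ranks of class means, here and below, are among the 7 classes. The mean level of Nfe2l2 was lowest in tumor cells and highest in macrophages. In tumor cells its level was 65.4, 50.4, 67.3, 78.3, 88.3, 89.0 and 157 CPM in replicates 1, 2, 3, 4, 5, 7 and 8 (mean 85.1 ± 34.5, SD, n = 7 mice), and in macrophages it was 389, 386, 649, 462, 675, 507 and 591 CPM (523 ± 119, n = 7). The lowest macrophage value was above the highest tumor value, so the groups did not overlap, and every mouse showed the difference. Endothelial cells had 325, 324 and 502 CPM in replicates 4, 5 and 8 (384 ± 102.5, n = 3), also without overlap with tumor cells. Myoepithelial cells followed with 165 ± 81.5 CPM (n = 5), then fibroblasts with 152 ± 54.0, T/NK cells with 118 ± 71.1 and hormone-sensing cells with 110.5 ± 44.2 (n = 7 each).

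In the fit over all genes (edgeR quasi-likelihood test, Benjamini-Hochberg adjustment over 5522 genes, mouse as a block) Nfe2l2 was lower in tumor cells than in macrophages by a log2 fold change of -3.00 ± 0.186 (SE, adjusted p = 7.3e-21), lower than in endothelial cells by -1.78 ± 0.347 (adjusted p = 7.5e-05) and lower than in fibroblasts by -1.12 ± 0.217 (adjusted p = 1.8e-05). It was also called lower than in myoepithelial cells (-0.91 ± 0.297, adjusted p = 0.017) and hormone-sensing cells (-0.56 ± 0.201, adjusted p = 0.028), but those calls were lost when single mice were left out. Without replicate 1 or 4 the myoepithelial value was -0.53 or -0.82 (adjusted p = 0.30 and 0.14), and without replicate 1, 2, 4 or 5 the hormone-sensing value was -0.47, -0.49, -0.45 or -0.56 (adjusted p = 0.062 to 0.22). In the WT mice alone these values were -0.13 and -0.05 (adjusted p = 0.93 and 0.98), and without the filter on low counts -0.45 and -0.38 (adjusted p = 0.69 and 0.52). The endothelial call was kept in 18 of 19 alternatives and lost with cells assigned by marker UMIs. It rests on 3 endothelial sums, and its SE and p use a spread estimated over all 43 sums. The exact sign-flip test over these 3 mice gave p = 0.25, the smallest that 3 mice allow. Against T/NK cells Nfe2l2 did not pass (-0.25 ± 0.232, adjusted p = 0.37), and without the filter on low counts the difference was 0.09. The T/NK values of replicates 3 and 8 (166 and 260 CPM) rested on 3 UMIs each. Over summed UMIs T/NK cells stood at 80.7 CPM and tumor cells at 77.2, so the lowest rank of tumor cells is not separated from T/NK cells.

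Within each title series macrophages kept the higher Nfe2l2 level. The mean difference of tumor minus macrophage on the log2(CPM + 10) scale was -2.66 in the 4 CB mice and -2.34 in the 3 WT mice. The difference to hormone-sensing cells went opposite ways, with -0.79 in CB mice and 0.43 in WT mice, where the hormone-sensing sum of replicate 8 stood at 23.7 CPM, a single UMI. Neighbouring classes below the endothelial level were not separated. Myoepithelial cells exceeded fibroblasts in 2 of 5 mice, fibroblasts exceeded T/NK cells in 5 of 7, T/NK cells exceeded hormone-sensing cells in 2 of 7 and hormone-sensing cells exceeded tumor cells in 6 of 7.

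Barcodes with fewer than 200 genes may hold free RNA and damaged cells, which was not tested. They had 71.4 to 237 CPM of Nfe2l2 (median 177), above the tumor level in 6 of 7 mice and below every macrophage value. Their part in the low Nfe2l2 level of tumor cells was not tested.

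Keap1, the substrate adaptor that holds NRF2 down, showed no such pattern. Its mean level ran from 42.8 ± 26.5 CPM in myoepithelial cells (n = 5) and 44.0 ± 24.3 in macrophages to 79.6 ± 20.3 in hormone-sensing cells and 80.4 ± 40.2 in T/NK cells, with 63.5 ± 33.4 in tumor cells (n = 7 each). Single mice spread as widely as the classes. Tumor cells of replicate 8 had 8.26 CPM, which is 1 UMI, and those of replicate 7 had 93.3 CPM. The test over the 7 classes did not pass (edgeR adjusted p = 0.79), and the 6 log2 differences of tumor cells to other classes lay between -0.13 and 0.54, with SE of 0.226 to 0.673. No pair of neighbours in the order of levels differed the same way in every mouse.

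**Figure D1:**
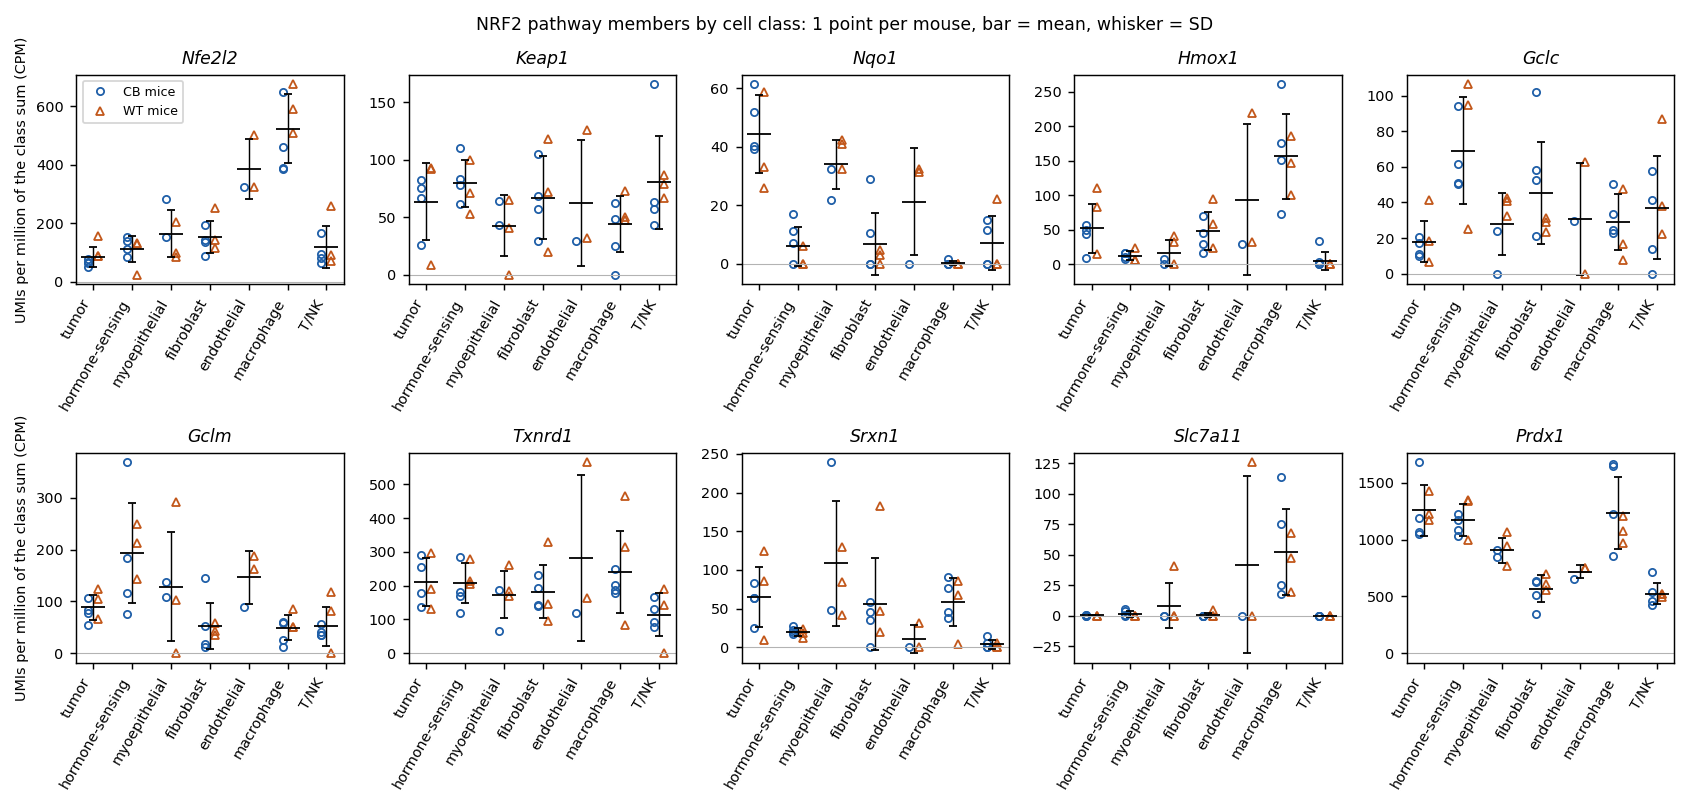
Level of each of the 10 genes in CPM (vertical axes, linear, scaled per gene) in the 7 cell classes (horizontal axes), with 1 symbol per mouse (circles CB series, triangles WT series), a horizontal bar at the mean and a whisker of 1 SD. The means of Nfe2l2 (386 to 675 CPM over mice) and Slc7a11 (17.4 to 114 CPM) are highest in macrophages, and that of Nqo1 in tumor cells (26.0 to 61.4 CPM).

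Slc7a11, Gclc and Gclm lie on the route to glutathione, and tumor cells did not have the top level of any of them. Slc7a11 encodes xCT, the subunit that exchanges cystine for glutamate at the plasma membrane. In macrophages it had 75.2, 114, 25.3, 17.4, 47.6, 19.2 and 67.5 CPM in replicates 1, 2, 3, 4, 5, 7 and 8 (52.3 ± 35.5, n = 7, 52 UMIs in all). In tumor cells only replicates 1 and 4 had a UMI each, 2 UMIs among 6879699 in the class (0.189 ± 0.326 CPM). Macrophages were above tumor cells in all 7 mice and the groups did not overlap (two-sided exact sign-flip test over mice on log2(CPM + 10), p = 0.0156, unadjusted and the smallest that 7 mice allow).

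The ratio of macrophage to tumor Slc7a11, taken over the summed UMIs, was 123, with a 95% interval of 32.5 to 1046 that covers counting error only. Against hormone-sensing cells, which held 4 UMIs, it was 24.5 (9.01 to 93.2), and against fibroblasts, which held 1 UMI, 36.3 (6.23 to 1460). T/NK cells held 0 UMIs of 1277197, which allows up to 2.35 CPM, so the macrophage level was at least 15.3-fold higher, with a floor of 3 counts over the class. The 4 endothelial UMIs all came from replicate 8 (126 CPM), and the 2 myoepithelial UMIs likewise (41.1 CPM), so neither class can be placed. Slc7a11 failed the filter on low counts in the fit. Without that filter, with 30994 genes, macrophages were higher by a log2 fold change of 5.92 (edgeR adjusted p = 3.8e-33), a size that depends on the prior count added to a class near 0.

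Gclc encodes the catalytic subunit of glutamate-cysteine ligase, the rate-limiting enzyme of glutathione synthesis. Its mean level was lowest in tumor cells, with 10.1, 20.5, 17.4, 10.97, 18.2, 6.51 and 41.3 CPM in replicates 1, 2, 3, 4, 5, 7 and 8 (17.9 ± 11.5). It was highest in hormone-sensing cells, with 51.0, 61.9, 50.3, 94.3, 107, 24.9 and 94.98 CPM (69.1 ± 29.97, n = 7 each). Tumor cells were lower in all 7 mice, although the ranges overlapped, since tumor cells of replicate 8 were above hormone-sensing cells of replicate 7. In the fit tumor cells were lower than hormone-sensing cells (log2 fold change -2.20 ± 0.289, edgeR adjusted p = 7.9e-09), fibroblasts (-1.61 ± 0.383, adjusted p = 0.00036), T/NK cells (-1.29 ± 0.368, adjusted p = 0.0024) and macrophages (-1.22 ± 0.367, adjusted p = 0.0045). Over mice tumor cells were lower than fibroblasts and macrophages in 6 of 7 (exact sign-flip p = 0.047 and 0.20, unadjusted) and lower than T/NK cells in 5 of 7 (p = 0.23). The T/NK call was kept in 16 of 19 alternatives, and was lost with the 9 principal components of the study and without replicate 4 (-1.0, adjusted p = 0.051). In the 3 WT mice alone the differences to fibroblasts (-1.11), macrophages (-0.91) and T/NK cells (-1.34) did not pass (adjusted p = 0.19, 0.30 and 0.099), nor did that to macrophages in the fit without the filter on low counts (-0.94, adjusted p = 0.052).

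Gclm encodes the modifier subunit of the same ligase, and its mean was also highest in hormone-sensing cells. Hormone-sensing cells had 76.4, 117, 369, 185, 213, 249.3 and 143 CPM (193 ± 97.0), against 82.6, 55.1, 106, 78.3, 125, 105 and 66.1 in tumor cells (88.4 ± 24.7, n = 7 each). Tumor cells were lower in 6 of 7 mice and by a log2 fold change of -0.99 ± 0.193 (edgeR adjusted p = 3.6e-05), a call lost in the WT mice alone (-0.89, adjusted p = 0.11). Endothelial cells (146 ± 51.7 CPM, n = 3) and myoepithelial cells (128 ± 105, n = 5) also lay above the tumor level, in 3 of 3 and 4 of 5 mice. These differences did not pass (-0.37 and -0.48, edgeR adjusted p = 0.65 and 0.30). Hormone-sensing cells exceeded endothelial cells in 2 of 3 mice. Fibroblasts (51.8 ± 44.5 CPM), T/NK cells (52.1 ± 37.7) and macrophages (48.7 ± 24.3) lay below the tumor level. In the fit the fibroblast difference passed (0.74 ± 0.282, adjusted p = 0.025), and it did not without replicate 1, 5 or 7 (0.61, 0.625 and 0.66, adjusted p = 0.067 to 0.097). Of 21 alternatives 13 kept this call, and it was also lost with DESeq2 (0.55, adjusted p = 0.12), with RLE size factors (0.54, adjusted p = 0.099), without the replicate block and in CB or WT mice alone (adjusted p = 0.16 and 0.17). The macrophage difference missed the threshold (0.48, adjusted p = 0.096), although tumor cells were higher in 7 of 7 mice (exact sign-flip p = 0.0156, unadjusted, the smallest that 7 mice allow) and 8 of 21 alternatives called it, among them the fit without the filter on low counts (0.79, adjusted p = 0.029). The fibroblast mean was above the tumor mean for Gclc and below it for Gclm.

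Nqo1 encodes a quinone reductase that uses NADPH or NADH and had its highest mean in tumor cells. Tumor cells had 40.4, 52.0, 39.1, 61.4, 26.0, 58.6 and 33.1 CPM in replicates 1, 2, 3, 4, 5, 7 and 8 (44.4 ± 13.3, n = 7). Hormone-sensing cells, the other luminal class, had 17.0, 7.07, 0, 11.4, 0, 6.23 and 0 CPM (5.95 ± 6.56), below tumor cells in all 7 mice and without overlap. T/NK cells (6.95 ± 9.23 CPM, 12 UMIs) did not overlap with tumor cells either, and fibroblasts (6.75 ± 10.5 CPM, 5 UMIs) overlapped through replicate 3 alone (28.98 CPM, 1 UMI). For each of these 3 classes and for macrophages the exact sign-flip test gave p = 0.0156, the smallest that 7 mice allow.

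Macrophages held 1 Nqo1 UMI of 1449531 against 335 of 6879699 in tumor cells, a ratio of 70.6 with a 95% interval of 12.6 to 2796. Myoepithelial cells were close to the tumor level (34.0 ± 8.33 CPM, n = 5, 9 UMIs), with the tumor class higher in 3 of 5 mice (exact sign-flip p = 0.31). Their tumor and alveolar markers reached 10480 to 42530 CPM. Free or admixed tumor RNA was gauged in non-epithelial classes by the oncogene transcript PYMT, the casein gene Csn3 and Wfdc18. Values are medians over mice of the percentage of their tumor level. Hormone-sensing and myoepithelial cells are epithelial and may make these transcripts themselves, so there the values are no gauge of such RNA. The medians were 15.2%, 11.5% and 11.1% in hormone-sensing cells, where mean Nqo1 stood at 13.4% of its tumor mean. In myoepithelial cells they were 23.5%, 53.1% and 11.2% beside 76.65% for Nqo1, and in T/NK cells 5.60%, 3.97% and 13.6% beside 15.7%. The Nqo1 percentages are ratios of class means and not medians over mice, so they are not on the same measure as the gauges. In T/NK cells the median of Nqo1 over mice was 0 CPM, with 4 of 7 mice at 0. Fibroblasts had 2.55%, 2.52% and 4.66% beside 15.2% for Nqo1, which rested on 5 UMIs, and macrophages 1.82%, 3.12% and 5.43% beside 0.561%. Epcam, Krt8 and Krt18, measured with them, stood at 12.6%, 12.9% and 8.16% in myoepithelial cells, at 2.52% to 2.65% in fibroblasts, 2.96% to 3.66% in macrophages and 9.13% to 11.5% in T/NK cells. In hormone-sensing cells they stood at 91.1%, 243% and 241% and were no gauge there. The 3 genes were set apart from the other 3 after their values were seen, and the part of such RNA in the Nqo1 levels was not tested.

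Nqo1 had too few UMIs to pass the filter on low counts. In the fit without that filter, in which 9.67% of 30994 genes were called between tumor and hormone-sensing cells, Nqo1 was higher in tumor cells by 2.80 ± 0.35 on the log2 scale (edgeR adjusted p = 1.1e-13). It was higher than in fibroblasts by 3.24 ± 0.502 (adjusted p = 2.9e-09) and than in T/NK cells by 2.57 ± 0.398 (adjusted p = 2.8e-09). The myoepithelial and endothelial differences did not pass (1.10 ± 0.505 and 1.78 ± 0.89, adjusted p = 0.22 and 0.36). In this fit the differences of the members tested in both fits moved towards tumor cells, abundant genes included. Nfe2l2 against macrophages was -2.72 in place of -3.00, and Prdx1 was 0.03 in place of -0.25 against macrophages, 1.003 in place of 0.54 against myoepithelial cells and 1.66 in place of 1.11 against endothelial cells, so the fitted Nqo1 and Slc7a11 differences carry such a shift too.

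Hmox1 encodes the inducible heme oxygenase, which opens the heme ring. Macrophages had 176, 261, 152, 73.2, 147, 99.8 and 186 CPM in replicates 1, 2, 3, 4, 5, 7 and 8 (156 ± 61.1), above the tumor cells of the same mouse in all 7. Tumor cells varied widely, with 56.5, 50.4, 43.4, 9.51, 110, 15.7 and 82.6 CPM (52.7 ± 35.5, n = 7 each). The highest tumor value, in replicate 5, was above the lowest 2 macrophage values, in replicates 4 and 7, so the ranges overlapped. Mean Hmox1 in tumor cells was 0.337 of the macrophage mean. The summed level of 10 macrophage markers in tumor cells was 23.9 to 181 CPM, against 24360 to 29410 in macrophages. Of 216 tumor cells with a Hmox1 UMI 11.1% had a macrophage marker UMI, against 8.07% of the 5119 without. Their median depths were 2047.5 and 644 UMIs. The part of macrophage RNA in the Hmox1 level of tumor cells was not tested.

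Fibroblasts had a Hmox1 level close to that of tumor cells (48.2 ± 28.03 CPM, higher in tumor in 3 of 7 mice), hormone-sensing cells had 12.6 ± 6.61 and T/NK cells 5.32 ± 12.9, the latter from 4 UMIs of which replicate 1 gave 3 at 34.5 CPM. Endothelial cells had 29.6, 32.4 and 220 CPM, and replicate 8 decided their mean of 93.9 CPM. The fit called tumor cells lower than macrophages (log2 fold change -2.04 ± 0.235, edgeR adjusted p = 7.5e-11) and higher than hormone-sensing cells (1.78 ± 0.342, adjusted p = 2.9e-05) and T/NK cells (3.41 ± 0.557, adjusted p = 6.2e-07). The hormone-sensing call was kept in 20 of 21 alternatives and lost with cells assigned by marker UMIs. Within the title series tumor cells lay below macrophages by -1.83 (CB) and -1.19 (WT) on the log2(CPM + 10) scale.

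Txnrd1, Srxn1 and Prdx1 belong to the thioredoxin route. Txnrd1, the cytosolic thioredoxin reductase, had means of 114 ± 63.8 CPM in T/NK cells, 211 ± 70.2 in tumor cells and 240 ± 121 in macrophages (n = 7 each). Its highest mean, 282 ± 246 CPM in endothelial cells (n = 3), rested on replicate 8 (565 CPM). The test over classes just failed (edgeR adjusted p = 0.052), as did tumor against T/NK cells (0.51 ± 0.244, adjusted p = 0.072), although tumor cells were higher in 6 of 7 mice. Both depended on the settings: 10 of 21 alternatives called Txnrd1 between classes and 13 of 21 called it against T/NK cells, DESeq2 and RLE size factors among them in both cases.

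Srxn1 encodes sulfiredoxin, which repairs overoxidized peroxiredoxins. Tumor cells had 63.0, 25.2, 82.5, 63.6, 85.7, 9.77 and 124 CPM in replicates 1, 2, 3, 4, 5, 7 and 8 (64.8 ± 38.4), near macrophages (58.1 ± 31.0) and fibroblasts (55.4 ± 59.4). The highest mean was that of myoepithelial cells (109 ± 80.9 CPM, n = 5), which tumor cells exceeded in 2 of 5 mice, and this difference did not pass (-0.46 ± 0.446, edgeR adjusted p = 0.50). Hormone-sensing cells were lower and even, at 11.8 to 27.9 CPM (20.1 ± 5.14), and T/NK cells held 7 UMIs (3.59 ± 5.56). Tumor cells were called higher than hormone-sensing cells (1.45 ± 0.334, edgeR adjusted p = 0.00043) and T/NK cells (2.85 ± 0.53, adjusted p = 7.9e-06), the former not in the WT mice alone (1.75, adjusted p = 0.095). Against endothelial cells, which held 1 Srxn1 UMI, the ratio over summed UMIs was 4.85 with a counting interval of 0.865 to 192. The fit called this difference at an adjusted p of 0.048, and the call was lost without replicate 3, 4, 5 or 8 (adjusted p = 0.054 to 0.17), with a fitted difference of 7.52 in place of 3.17 without replicate 8, which held the only endothelial UMI.

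Prdx1, a thiol peroxidase that removes hydrogen peroxide, had its 3 highest means in tumor cells, macrophages and hormone-sensing cells, and these classes overlapped. Tumor cells had 1194, 1063, 1681, 1053, 1431, 1175 and 1223 CPM (1260 ± 224), macrophages 1234 ± 316 and hormone-sensing cells 1172 ± 143 (n = 7 each). Log2 differences of tumor cells to these classes were -0.25 ± 0.149 and 0.19 ± 0.149 (edgeR adjusted p = 0.16 and 0.37). The macrophage difference was called in 2 of 21 alternatives, DESeq2 and RLE size factors, and that to hormone-sensing cells in 0 of 21. Fibroblasts (341 to 695 CPM, 568.2 ± 117) and T/NK cells (425 to 719 CPM, 524 ± 94.5) lay below every tumor value. Tumor cells were higher by 0.97 ± 0.157 against fibroblasts (adjusted p = 5.2e-07), 1.22 ± 0.16 against T/NK cells (adjusted p = 3.5e-09) and 1.11 ± 0.245 against endothelial cells (adjusted p = 0.00042). The endothelial call rests on 3 sums, and the exact sign-flip test over these 3 mice gave p = 0.25, the smallest possible. This call was lost in the WT mice alone (1.12, adjusted p = 0.073) and with cells assigned by marker UMIs (1.22, adjusted p = 0.051). The myoepithelial difference (0.54 ± 0.183, adjusted p = 0.022) was lost without replicate 5 or 7 (0.55 and 0.455, adjusted p = 0.06 and 0.078) and in CB or WT mice alone (adjusted p = 0.31 and 0.26). With DESeq2, with RLE size factors and with at least 20 cells per sum it was lost too, so that 12 of 19 alternatives kept it.

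**Figure D2:**
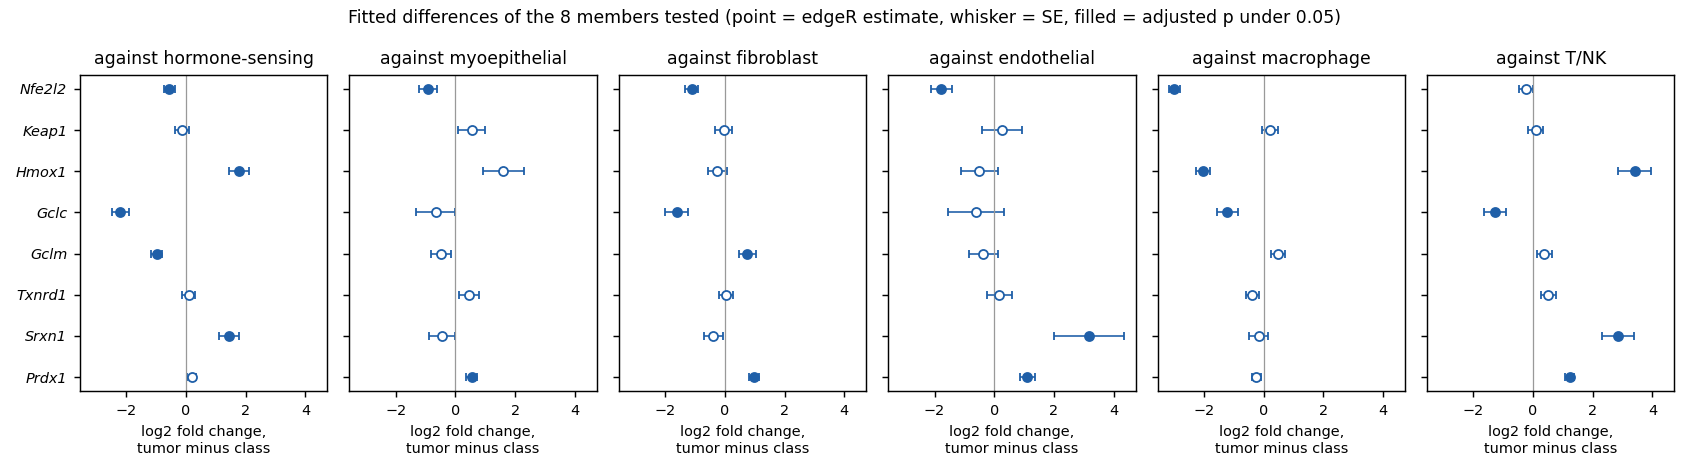
Log2 fold change of tumor cells minus each other class (horizontal axes) for the 8 genes that passed the filter on low counts, from the edgeR fit, with whiskers of 1 SE and filled points where the adjusted p was under 0.05. The most negative difference is that of Nfe2l2 against macrophages (-3.00) and the most positive that of Hmox1 against T/NK cells (3.41). T/NK cells held 4 Hmox1 UMIs, with 5 of 7 mice at 0, so the size of that difference is uncertain. Keap1 and Txnrd1 have open points in all 6 panels.

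Counted together, 6 of the 8 members tested differed between the 7 classes at an adjusted p under 0.05, where 85.6% of all 5522 genes did, and the exceptions were Keap1 and Txnrd1. Against hormone-sensing cells 2 members were higher in tumor cells (17% of all genes were) and 3 were lower (14.3% of all genes). Against myoepithelial cells 1 was higher (12.7%) and 1 lower (13.9%), and against fibroblasts 2 were higher (23.5%) and 2 lower (25.7%). Against endothelial cells 2 were higher (10.6%) and 1 lower (10.3%). Against macrophages 0 members were higher (25% of all genes were, edgeR; 0 members also at an unadjusted p under 0.05, and 0 with DESeq2) and 3 were lower (25.5%), namely Nfe2l2, Hmox1 and Gclc. That 0 did not include Nqo1, which was not tested in this fit and was called higher in both alternatives that tested it, with a fitted 5.61 without the filter on low counts (adjusted p = 2.2e-17), nor Gclm, which 8 of 21 alternatives called. Against T/NK cells 3 were higher (27.1%) and 1 lower (26.6%). The median log2 difference of the members tested was -0.31 against macrophages and 0.44 against T/NK cells, beside 0.07 and 0.04 for all genes. Medians of all genes were 0.32 against endothelial and 0.12 against myoepithelial cells. Differences to these classes were tested against 0 and not against these medians.

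Within the tumor class the 3 clusters were led by Thrsp, a regulator of lipid synthesis, and the milk protein gene Lalba (cluster 0, 2400 cells), by Npy, the acute-phase gene Saa1 and Ltf, which encodes lactoferrin (cluster 1, 2367 cells), and by interferon-response genes such as Ifit3 and Isg15 (cluster 9). None of the 10 members was among the genes that drew the clusters, but genes that vary with them may have been. Of the 8 members tested Nqo1 was the only one called between the clusters (edgeR adjusted p = 0.00073), where 27.1% of 3304 genes were. It had 33.2, 18.9, 15.97, 46.1, 20.03, 32.3 and 15.4 CPM in cluster 0 and 57.9, 67.8, 107, 73.4, 52.6, 64.4 and 60.7 CPM in cluster 1. Cluster 1 was above cluster 0 in every mouse with no overlap, by 1.24 ± 0.254 on the log2 scale (adjusted p = 0.0002). Cluster 9 scattered from 0 to 136.5 CPM, and its difference to cluster 0 did not pass (adjusted p = 0.105). Without replicate 2 or 4, and in the WT mice alone, Nqo1 failed the filter on low counts and was not tested. It was thus near the limit of that filter and may have passed it through cluster 1, where it was high, which was not tested. The comparison with the other members and with the share of all genes is a description for this reason. In the fit without the filter Nqo1 was called too (edgeR adjusted p = 0.00039). Srxn1 went the same way as Nqo1 between clusters 0 and 1 (by 0.61 ± 0.254) but did not pass (adjusted p = 0.065). Over the 3 clusters Srxn1 was called in 2 of 15 alternatives, without replicate 3 and without replicate 7.

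**Figure D3:**
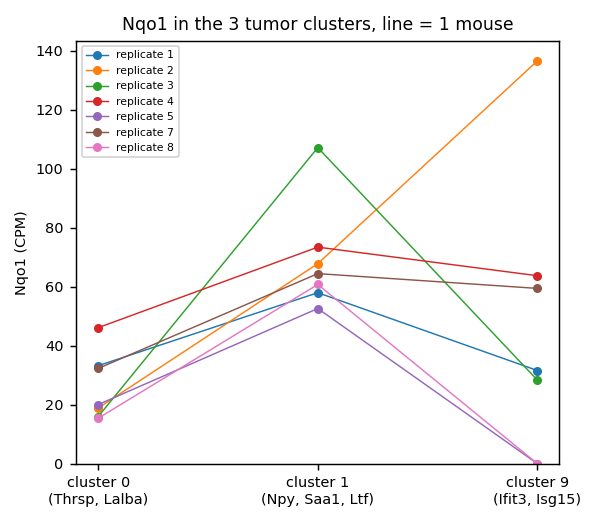
Nqo1 in CPM (vertical axis, linear) in the 3 tumor clusters (horizontal axis, with leading genes), 1 line per mouse. All 7 lines go up from cluster 0 (15.4 to 46.1 CPM) to cluster 1 (52.6 to 107 CPM), whereas cluster 9 spreads from 0 to 136.5 CPM.

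The macrophage class also held different patterns. Cluster 2 (1770 cells), led by complement genes C1qa, C1qb and C1qc, had 535 ± 126 CPM of Nfe2l2, 125 ± 64.0 of Hmox1 and 54.5 ± 36.5 of Slc7a11 (n = 7). Cluster 15 (141 cells), led by Lyve1, Folr2, Cd209f and F13a1, genes known from tissue-resident macrophages, had at least 10 cells in replicates 1, 4, 5 and 7. Its Hmox1 level was 497, 77.6, 738 and 702 CPM (504 ± 303, 36 UMIs), above the level of cluster 2 in each of these 4 mice (129, 72.9, 60.04 and 72.3 CPM). Replicate 4 differed least. Nfe2l2 was 268 ± 159 CPM in cluster 15, and Slc7a11 had 0 UMIs of 87204, which allows up to 34.4 CPM over the cluster, a limit below the cluster 2 mean but inside its range over mice (18.7 to 115 CPM). With 4 mice an exact sign-flip test cannot go below 0.125, and none was run.

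**Figure D4:**
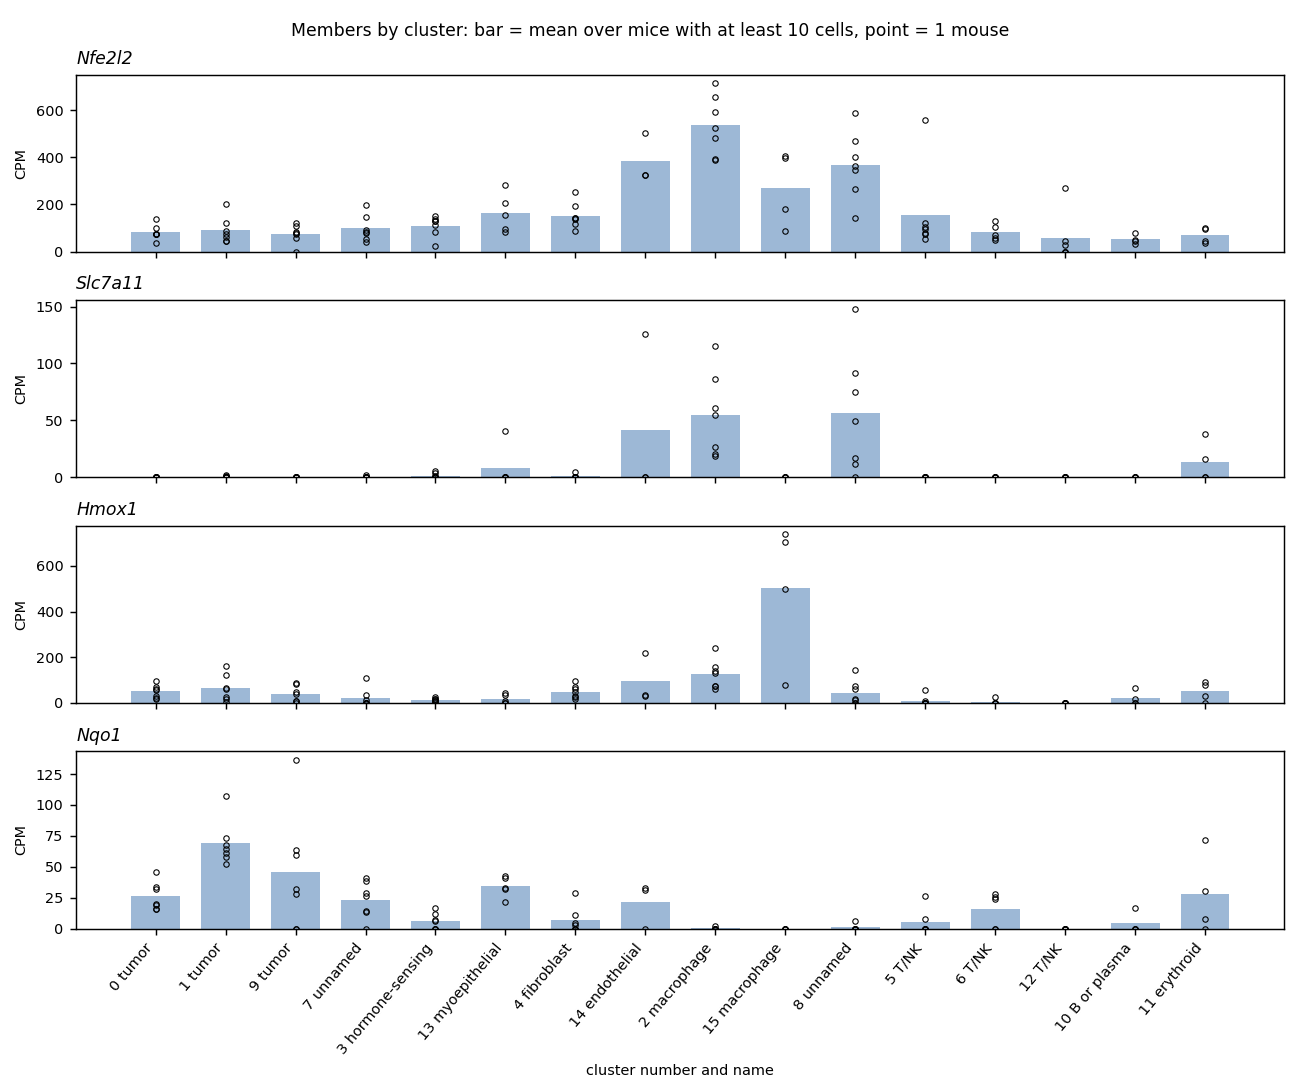
Nfe2l2, Slc7a11, Hmox1 and Nqo1 in CPM (vertical axes, linear, from 0) in all 16 clusters (horizontal axis, number and name), with a bar at the mean over mice with at least 10 cells and 1 point per mouse. Hmox1 stands highest in macrophage cluster 15 (mean 504 CPM), Slc7a11 in clusters 2 and 8 (means 54.5 and 56.1 CPM) and Nqo1 in tumor cluster 1 (mean 69.1 CPM).

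Other genes of the pathway were counted from lists, and each count is to be read against the shares of all genes called. These were 85.6% between classes, 17% higher and 14.3% lower against hormone-sensing cells, 25% and 25.5% against macrophages and 27.1% and 26.6% against T/NK cells. Among genes that control NRF2 (11 listed, 10 in the matrices, 8 tested), Maff, a small MAF partner, was higher in tumor than in hormone-sensing cells (log2 fold change 1.14, edgeR adjusted p = 0.00014). Sqstm1, whose product p62 binds KEAP1, was lower in tumor cells than in macrophages (-0.75, adjusted p = 0.0028) and higher than in T/NK cells (0.66, adjusted p = 0.016). Endothelial Sqstm1 spread from 414 to 2794 CPM over 3 mice (1275 ± 1320) and overlapped with tumor cells (286 to 611 CPM). The fit called tumor cells lower (-0.90, adjusted p = 0.04), which was not recomputed without the highest sum. Nfe2l1, which encodes a related factor, was higher in tumor cells than in macrophages (0.91, adjusted p = 0.00026) and T/NK cells (1.26, adjusted p = 4.1e-06), opposite to Nfe2l2 for the first. The ligase subunit gene Rbx1 was called against no class. In all, 1 control gene was higher and 2 were lower in tumor cells than in macrophages (median -0.31), and 4 were higher and 0 lower than in T/NK cells (median 0.41).

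Of 21 glutathione genes 13 were tested and all 13 differed between classes, as did 85.6% of all genes. Against hormone-sensing cells 4 were higher and 6 lower in tumor cells (median -0.46), against macrophages 4 and 4 (median -0.28) and against T/NK cells 6 and 1 (median 1.12). Mgst1, a microsomal glutathione transferase, had its highest mean in tumor cells (1342 CPM) and was above macrophages by 3.24 on the log2 scale (adjusted p = 4.2e-15). Gpx3, a secreted peroxidase, had 1192 CPM in fibroblasts against 11.1 in tumor cells (-6.82, adjusted p = 7.6e-25). Slc3a2, which encodes the heavy chain that carries xCT and several other transporters, was found in tumor cells (320 CPM) where Slc7a11 was near 0, and was higher in macrophages (502 CPM, -0.94, adjusted p = 4.5e-06).

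Heme and iron genes were lower in tumor cells than in macrophages for 5 of 7 tested and higher for 1 (median -1.50). Blvrb, which encodes biliverdin reductase B, had 52.8 CPM in tumor cells and 211 in macrophages (-2.36, adjusted p = 7.9e-16). The ferritin genes Fth1 (3636 and 18970 CPM, -2.67, adjusted p = 2.9e-16) and Ftl1 (588 and 3054 CPM, -2.67, adjusted p = 9.9e-20) moved with it, and Hmox2, the constitutive heme oxygenase, was lower too (-1.16, adjusted p = 2.2e-06). Ferritin genes have many near-identical copies, so their counts are uncertain.

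NADPH genes, all 7 of which were tested, were higher in tumor cells than in T/NK cells for 6 and lower for 0 (median 0.86), and higher than in macrophages for 1 and lower for 3 (median -0.37). Taldo1, of the pentose phosphate pathway, was above fibroblasts by 2.07 (adjusted p = 3.0e-12). Of 12 thioredoxin, peroxiredoxin and superoxide genes tested, 6 were higher and 2 lower in tumor cells than in T/NK cells (median 0.50), where Prdx6 was among the lower ones (-1.14, adjusted p = 8.7e-07). Of 7 quinone and carbonyl genes tested, 2 were higher and 3 lower in tumor cells than in macrophages (median -0.16). Ephx1, an epoxide hydrolase, was higher in tumor cells by 2.47 (adjusted p = 1.2e-10) and Cbr1, a carbonyl reductase, by 1.46 (adjusted p = 9.1e-07). The aldo-keto reductase genes Akr1a1 (-0.80, adjusted p = 2.1e-05) and Akr1b3 (-1.79, adjusted p = 2.3e-05) and the P450 reductase gene Por (-1.12, adjusted p = 0.00062) were lower in tumor cells. Akr1b3 was named after its values were seen.

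Genes whose pattern over the 43 sums was most like that of 4 members were named as a description, with Pearson's r of log2(CPM + 10) after centring each mouse. The sums of one mouse share a library, and depth differs between classes. For Nfe2l2 they were Plekho1 (r = 0.86), Tgfbi (0.80) and Clec4d (0.80), each with its highest mean in macrophages. For Slc7a11 they were C5ar1 (0.88), Clec12a (0.86) and Ptafr (0.85), receptor genes of myeloid cells. For Hmox1 they were Dram2 (0.83), Rab7b (0.82) and Grn (0.82), and for Nqo1 Thrsp (0.82), Col9a1 (0.78) and Tfap2c (0.78). Among the members themselves r was 0.70 between Slc7a11 and Nfe2l2, 0.56 between Hmox1 and Nfe2l2 and -0.39 between Nqo1 and Nfe2l2. For the remaining members r with Nfe2l2 lay between -0.22 (Gclm) and 0.13 (Srxn1).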

How the data were processed

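For every library the authors deposited raw UMI counts by gene and cell barcode, from reads mapped to mm10 and the PyMT transgene. The submitters' processing notes name STAR and FastQC without a version, and list human builds (GRCh37.p13, hg19) that go against the mouse gene symbols in the matrices; the annotation and counting program are not given in the sources used here. Counts were used as deposited.

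A barcode counted as a cell at 200 to 6000 genes, mitochondrial genes (listed in 2 of 7 libraries) were dropped, and no doublet caller was run beyond the upper limit on genes, which 3 barcodes exceeded. Cells were clustered with Seurat 5.3.0 (R 4.3.3) on genes in at least 3 cells, at resolution 0.6 as in the study but with 20 principal components in place of 9, which did not separate endothelial and myoepithelial cells. The members and the listed pathway genes were left out of the variable genes. Clusters were named from marker lists. UMIs were summed per mouse and class with at least 10 cells and tested with edgeR 4.0.16 (TMM, filterByExpr, quasi-likelihood, mouse as a block, Benjamini-Hochberg over all 5522 genes tested, threshold 0.05); 8 of 10 members passed the filter. For each gene all 43 sums shared 1 estimate of the spread, because shallow classes have few sums. The SE of an edgeR log2 fold change is an approximation, its absolute value over the square root of the F statistic of its test. DESeq2 1.42.0 was an alternative. Tests of single genes were two-sided exact sign-flip tests over mice on log2(CPM + 10), unadjusted. Intervals of ratios are exact at 95% and, like floors of 3 counts, cover counting error only. The fit was run on counts simulated from the tumor profile, with large changes put into fibroblasts only and no effect of the mouse. That run cannot check the mouse block, the endothelial and myoepithelial classes or genes with few UMIs. Libraries came from separate mice according to the methods of the study.

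Members and gene lists were chosen with earlier results of these data known. Named genes were all 10 members, from each list up to 4 tested genes with the highest mean CPM over the classes, and for Nfe2l2, Nqo1, Hmox1 and Slc7a11 the 3 genes most like each. Alternatives were other clustering settings, cells assigned by marker UMIs, at least 500 genes per cell, other scalings and filters, at least 20 cells per sum, no replicate block, either title series by itself and the omission of single mice; an unnamed cluster counted as tumor was added after seeing the data. Python 3.11.15, numpy 2.4.6, scipy 1.17.1, pandas 2.3.3 and matplotlib 3.10.9 were used for the rest.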

Additional observations from a re-analysis of the deposited data

Results flagged for a closer look

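In 12 of 59 groups of 4 to 7 mice with a member's levels in a class, 1 mouse stood apart from the others by more than Dixon's 95% limit. Chance flags about 1 in 20 groups, and groups with many values at 0 are flagged by single UMIs. In tumor cells, replicate 8 stood apart for Nfe2l2 (157 CPM, next value 89.0) and for Gclc (41.3 CPM, next 20.5). In fibroblasts, replicate 3 stood apart for Nqo1 (29 CPM, next 10.6) and Gclm (145 CPM, next 57.7), replicate 8 for Srxn1 (183 CPM, next 58.3) and replicate 7 for Slc7a11 (4.81 CPM, all others at 0). In T/NK cells, replicate 3 stood apart for Keap1 (166 CPM, next 86.7) and Prdx1 (719 CPM, next 538), replicate 1 for Hmox1 (34.5 CPM, next 2.72) and replicate 4 for Srxn1 (14.9 CPM, next 5.45). In macrophages, replicate 4 held the single Nqo1 UMI (1.74 CPM), and in myoepithelial cells replicate 8 held both Slc7a11 UMIs (41.1 CPM).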

How the results depend on the processing

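No called value reversed its direction under the alternatives that were run, and of single fold changes recomputed under them 370 kept their call and 50 lost it. Losses were most frequent for Nfe2l2 against hormone-sensing cells (kept in 11 of 21), Srxn1 against endothelial cells (9 of 18), Gclm against fibroblasts (13 of 21) and Prdx1 and Nfe2l2 against myoepithelial cells (12 and 15 of 19). Calls of Nfe2l2 and Hmox1 against macrophages were kept in 21 of 21. Counts of members called moved by more than 1.5 times as follows. The share of all genes called was not computed under most alternatives, and the members tested changed with the setting. With cells assigned by marker UMIs, 1 member was called against hormone-sensing and 0 against endothelial cells (edgeR, 1 at an unadjusted p under 0.05), where Gclc and Srxn1 had too few UMIs to be tested, so that 6 members were. In the WT mice alone, 2 were called against hormone-sensing cells, 1 against endothelial cells, 2 against fibroblasts and 0 against myoepithelial cells (0 at an unadjusted p under 0.05), and 0 between tumor clusters, where Nqo1 was not tested. In the CB mice alone, with RLE size factors and with DESeq2, 1 was called against myoepithelial cells. Without the filter on low counts 5 were called against macrophages, 7 against T/NK cells and 2 between tumor clusters. In that fit over classes Nqo1 and Slc7a11 were tested too. It called 17.8% of 30994 genes against macrophages and 18% against T/NK cells. The main fit called 25% higher and 25.5% lower in tumor cells than in macrophages, and 27.1% and 26.6% than in T/NK cells. With at least 20 cells per sum, and with the unnamed PyMT-positive cluster counted as tumor (chosen after seeing the data), 5 were called against macrophages. In both settings Slc7a11, not tested in the main fit, was tested and was among those called. Leaving out 1 mouse at a time gave 6 to 9 members over all classes, 4 to 6 against hormone-sensing, 1 to 3 against myoepithelial, 3 to 5 against fibroblasts, 2 to 4 against endothelial cells, 3 to 5 against macrophages, 3 to 6 against T/NK cells and 0 to 2 between tumor clusters. In these fits over classes Slc7a11 was tested without replicate 1, 3, 4, 5 or 8, and Nqo1 without replicate 8, which adds to the higher counts. Without the replicate block Nfe2l2 against hormone-sensing cells (-0.47, adjusted p = 0.18), Gclm against fibroblasts (0.75, adjusted p = 0.10) and Srxn1 against endothelial cells (adjusted p = 0.21) lost their call. The causes were not tested. With 9 principal components no endothelial or myoepithelial class was found, so those comparisons were not run. Depth limits values from shallow sums, of which T/NK cells of replicate 8 had the fewest UMIs (11541) and the 3 endothelial sums 30837 to 33833.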

Other observations

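Clusters outside the 7 classes also carried members. Cluster 8 (722 cells), led by Retnla, Napsa and Ccr2 and left unnamed, had 368 ± 142 CPM of Nfe2l2 and 56.1 ± 53.0 CPM of Slc7a11 (26 UMIs, 0 to 148 CPM over 7 mice), with 44.1 ± 53.0 CPM of Hmox1 and 1 Nqo1 UMI. Cluster 7 (846 cells), led by Edn1, Csn1s1 and Krt14 and also unnamed, had 99.2 CPM of Nfe2l2, 23.0 of Nqo1 and 1293 of Prdx1. Its best-scoring marker list was that of tumor and alveolar epithelium, and 48.8% of its cells came from 1 mouse. It is the unnamed PyMT-positive cluster of the alternatives, and the tumor class leaves its cells out. Counting it as tumor took replicate 3 from 392 to 805 tumor cells. Cluster 10, named B or plasma, had 51.5 CPM of Nfe2l2, 4.25 of Nqo1 and 0 Slc7a11 UMIs. Cluster 11, named erythroid although PYMT, Plet1 and Trf were among its leading genes, had 27.7 CPM of Nqo1 and 50.2 of Hmox1.

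Barcodes with fewer than 200 genes had more Slc7a11 than tumor cells in 6 of 7 mice (0 to 45.7 CPM, median 13.7) and more Gclc in 6 of 7 (12.1 to 54.9 CPM, median 35.8). Nqo1 (5.17 to 30.3 CPM) and Prdx1 (346 to 884 CPM) were lower in these barcodes than in tumor cells in all 7 mice.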
